A study of Homo sapiens with 12 samples.

Results

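Cytosolic ribosomal proteins are the protein components of the ribosome outside mitochondria. Members were genes whose symbol follows the RPL or RPS numbering, plus RPSA and the stalk proteins RPLP0, RPLP1 and RPLP2, taken from the array's probe-to-gene table. A gene entered if a probe set carried its symbol alone, and its brightest probe set stood for it. This gave 60 genes of the 19775 genes on the array with such a probe set, and the choice used no change between groups. Of the 60, 57 passed the filter on dim genes and were tested: 20 small subunit proteins, 29 large subunit proteins, the stalk proteins RPLP1 and RPLP2, and 6 paralog copies (RPL10L, RPL22L1, RPL26L1, RPL39L, RPL7L1 and RPS27L). RPL36A, RPL3L and RPS4Y1 were left out by the filter. Another 15 ribosomal protein genes, among them RPL4, RPL5, RPL10, RPL13, RPS2, RPS3A and RPS20, occur only on probe sets with several symbols and were not analysed here.

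The study measured RNA of Ls174T, a human colorectal carcinoma cell line in which Wnt signalling through β-catenin and Tcf4 is active. The shRNA line carried an shRNA against β-catenin inducible with doxycycline, and was profiled after 72 h with doxycycline (induced, 3 arrays) and without it (uninduced, 3 arrays). The dn-Tcf4 line, named L8 in the labels, carried a dominant-negative Tcf4 transgene under the same kind of control, and was profiled after 24 h with doxycycline (induced, 3 arrays) and without it (uninduced, 3 arrays). Both lines descend from Ls174T, and the labels do not say whether a line is 1 clone or whether arrays came from separate cultures, so p-values measure the spread between arrays, which may be technical. Doxycycline and the construct it induces cannot be told apart in this design, nor can line, construct and time where both lines are compared.

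Most ribosomal proteins are made in equal numbers for each ribosome, and mRNAs of ribosomal proteins are among the most abundant in dividing cells. Most of these mRNAs start with a C followed by a run of C and T letters, the 5′ terminal oligopyrimidine (TOP) motif, through which mTOR and LARP1 set their translation and stability. MYC, a Wnt target in colorectal cells, is known to raise ribosome production through RNA polymerase I, assembly factors and ribosomal protein genes. Several ribosomal proteins have paralog copies elsewhere in the genome, and most have many processed pseudogenes of near-identical sequence.

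The sequence around the start of transcription shows a feature that most members share and other members, copies among them, lack. RefSeq promoters (GRCh38.p14) matched 52 of the 60 genes, with 60 annotated start sites. A C at the annotated start followed by C or T letters, at least 5 in all, was found at 36 of the 60 sites (60%), and at 4.069% of all 35116 promoters in the table. Among members other than copies it was found at 34 of 53 sites (64.15%), and among the copies at 2 of 7 sites (28.57%). The windows printed here run from 15 bases before the annotated start to 15 from it on, 5′ to 3′, and capitals mark the longest run of C and T that lies near the start.
RPS6: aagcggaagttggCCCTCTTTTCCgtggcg
RPL31: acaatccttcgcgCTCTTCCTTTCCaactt
RPL39: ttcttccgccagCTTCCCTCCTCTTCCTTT
RPL35A: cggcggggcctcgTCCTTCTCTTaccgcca
RPS27: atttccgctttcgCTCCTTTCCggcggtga
RPS27L: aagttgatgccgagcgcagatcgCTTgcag
RPL22: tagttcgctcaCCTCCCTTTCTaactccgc
RPL22L1: cgcggccgtagCTTCCTCTCTgctctcgcg
RPL7L1: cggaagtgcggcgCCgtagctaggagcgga
RPS6 lies at chr9:19380222-19380251 on the minus strand, RPL31 at chr2:101002274-101002303 on the plus strand, RPL39 at chrX:119791616-119791645 on the minus strand and RPL35A at chr3:197950175-197950204 on the plus strand. The pair RPS27 and RPS27L lies at chr1:153990747-153990776 (plus) and chr15:63157463-63157492 (minus), and the pair RPL22 and RPL22L1 at chr1:6199581-6199610 (minus) and chr3:170870181-170870210 (minus). RPL7L1 lies at chr6:42879601-42879630 (plus). The copy RPL22L1 holds a run like its main gene, while RPS27L and RPL7L1 start with a G and hold no run of more than 3 such letters near it. Runs as short also occur in members that are no copies, among them RPL27 and RPS29, each with a longest run of 2.

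Other motifs were counted in the 300 bases from 250 before the start to 50 after it. TTCCGG on either strand, the core bound by ETS factors, was present at 35 of the 60 sites (58.33%), against 17.25% of all promoters, and its letters TTCC can lie within a run of C and T. CACGTG on either strand, the E-box that MYC and MAX bind, was present at 4 sites (6.667%), against 7.256% of all promoters. The TCF/LEF motif on either strand (CTTTG, then a pair of letters each of which is A or T) was present at 6 sites (10%), against 13.75% of all promoters, and RPL22L1 and RPS27 were among the 6. A match in these windows is a description of letters and no measurement of binding.

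The values are array signals on a linear scale in arbitrary units, and in the deposited values the mean of the middle 96% of probe sets was 100 on every array. Replicate arrays correlated with r between 0.958 and 0.969 across all probe sets at or above the median signal, which are not independent replicates. Ribosomal proteins were among the brightest genes on these arrays: 50 of the 57 had a mean log2 signal of at least 12, and the members together made up between 6.05% and 9.41% of the summed signal of all 12386 tested genes. Of the intestinal epithelial markers fixed for the check of cell type all 11 were measured above the filter, with summed signals of 32676 to 37784 in induced and 18099 to 20347 in uninduced arrays of the shRNA line, and 30396 to 33444 in induced and 23178 to 25662 in uninduced arrays of the dn-Tcf4 line. Of other cell types' markers only COL1A1, DCN, LUM, ITGAM and PECAM1 passed the filter. The summed signal of the fibroblast list was 87.3 to 146 in induced and 83.9 to 110.6 in uninduced shRNA arrays, and 165.5 to 191.3 in induced and 94.3 to 116.8 in uninduced dn-Tcf4 arrays, and no leukocyte or endothelial sum exceeded 62 on any array. The part of these markers in the results was not tested.

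Small shifts of very bright genes depend on how arrays are brought to a common scale, so the level of each array is given first. The median signal of the 57 members was 9377, 10606 and 10786 in induced arrays of the shRNA line (replicate 2 the lowest), against 8829.6 to 9917 in its uninduced arrays. It was 6063 to 6795 in induced arrays of the dn-Tcf4 line, against 7138 to 7419 in its uninduced arrays. The groups of the shRNA line overlapped, those of the dn-Tcf4 line did not, and all dn-Tcf4 arrays lay below all shRNA arrays.

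Other bright signals moved with the same groups, in part. The bacterial control transcripts bioB, bioC, bioD and cre, added in fixed amounts before hybridisation, shifted in mean log2 signal by 0.11 (induced minus uninduced shRNA arrays), by -0.11 (induced minus uninduced dn-Tcf4 arrays) and by -0.15 (uninduced dn-Tcf4 minus uninduced shRNA arrays). The corresponding shifts of the members' array medians were 0.13, -0.19 and -0.38. For 32 other genes at least as bright as the lower quartile of the members, the array medians shifted by 0.13, -0.0036 and -0.11. The medians of the changes gene by gene were 0.10, -0.03 and -0.22 for these 32 genes, 0.12, -0.17 and -0.35 for the members and 0.02, -0.05 and -0.03 for all 12386 tested genes. The ratio of 3′ to 5′ ACTB signal, a measure of RNA integrity, was 1.13 to 1.16 in induced dn-Tcf4 arrays, against 1.25 to 1.35 in uninduced ones, and 1.29 to 1.34 in induced shRNA arrays, against 1.32 to 1.39 in uninduced ones. The part of these measures in the results was not tested, and in total RNA of a culture fewer cells and less RNA per cell cannot be told apart.

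**Figure D1:**
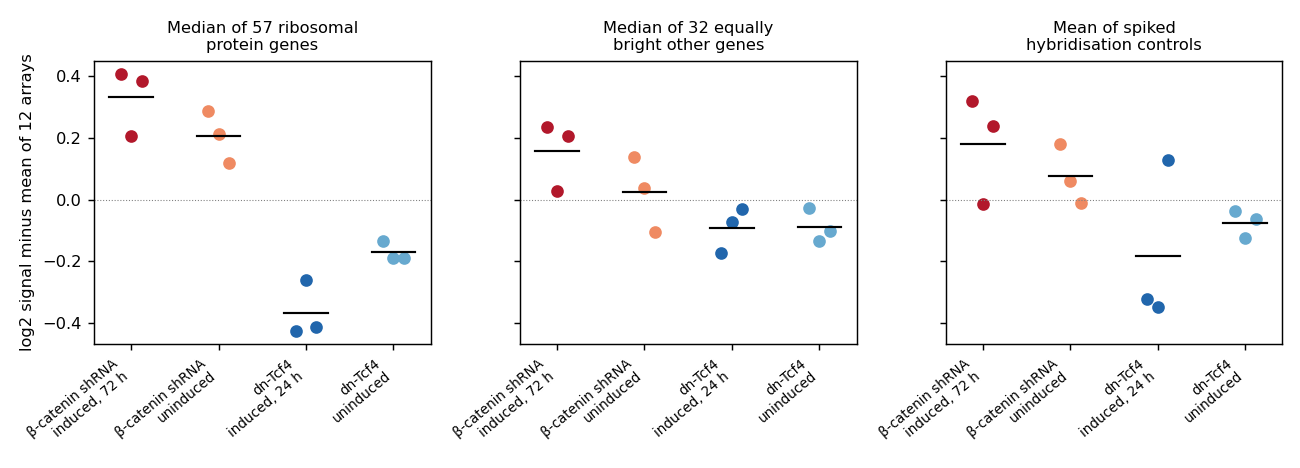
Array levels in the 4 groups. Each point is 1 array, its log2 signal minus the mean of the 12 arrays, for the median of the 57 members (left), the median of 32 other genes of like brightness (middle) and the mean of the spiked controls (right), and bars are group means. The members' points of the dn-Tcf4 line separate into induced below uninduced and lie below both groups of the shRNA line, and replicate 2 of the induced shRNA arrays is the lowest of its group in all 3 panels.

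After 72 h of the β-catenin shRNA, 4 members passed the test: RPL39L was lower, and RPL12, RPL3 and RPS9 were higher. Calls rest on limma over all tested genes, with a Benjamini-Hochberg adjusted p below 0.05. Among all tested genes 34.0% were called in this comparison, 16.6% higher and 17.4% lower, so 3 and 1 of 57 are smaller shares than those of all genes. The median change over the members was 0.12 on the log2 scale, 52 of 57 had a positive change, and the 50 bright members lay between -0.04 and 0.24. The sign depended on the scaling: 28 of 57 were positive after quantile normalization (median -0.00), 23 with arrays centred on equally bright other genes (median -0.01) and 40 with arrays centred on the spiked controls (median 0.02). The 3 induced signals all lay above the 3 uninduced signals in 8 members and all below in 2, while 22.4% and 22.2% of all tested genes separated in these ways.

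RPL39L, a copy of RPL39 best known from testis and some tumours, had the largest change. Its signal was 44.4, 52.9 and 33.8 in induced arrays, against 135.6, 121.3 and 93.7 in uninduced arrays, so that the groups did not overlap. It fell 2.69-fold (log2 change -1.43 ± 0.21 SE, adjusted p = 5.01e-05). RPL39L has 1 probe set on the array.

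The 3 increases were small and close to the threshold. RPS9, a small subunit protein near the entry of the mRNA channel, had signals of 8026, 7886 and 8335 in induced arrays, against 7299, 7259 and 6355 in uninduced arrays, without overlap (0.22 ± 0.07, adjusted p = 0.0323). RPL3, which lies close to the peptidyl transferase centre, had 11008, 9261 and 10760.3 in induced arrays, against 9272, 8896 and 8144 in uninduced arrays (0.24 ± 0.09, adjusted p = 0.0448). In RPL3 the lowest induced array, replicate 2, lay just under the highest uninduced one.

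RPL12, a protein at the base of the stalk, had 10786, 9381 and 10602 in induced arrays, against 9394.5, 8982 and 8333 in uninduced arrays (0.20 ± 0.07, adjusted p = 0.0406), and its groups touched in the same way. These calls rest on single arrays. Without replicate 1 or 3 of the induced arrays or replicate 3 of the uninduced arrays the count was 1, each time RPL39L. Among all tested genes these 3 fits called 1774 to 1997 higher and 1891 to 2014 lower. Without replicate 2 of the induced arrays 30 members were called, 29 of them higher, against 1773 higher and 2026 lower among all tested genes. With arrays centred on the spiked controls, on equally bright other genes or on their median the counts were 1, 2 and 1, and after quantile normalization 1, while 21.4%, 30.4%, 28.6% and 34.3% of all tested genes were called. RPL39L passed under each of these 4 scalings and the 3 increases under none.

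Members of particular interest for their regulation did not pass the test with the shRNA. RPS6, the small subunit protein phosphorylated by S6 kinase, had 12986, 10771 and 12637 in induced arrays, against 11117, 10835 and 11282 in uninduced arrays (0.13, adjusted p = 0.184). RPL11, which with RPL5 and 5S rRNA can bind MDM2, had 8598, 7604 and 8146 in induced arrays, against 7325, 7602 and 6572 in uninduced arrays (0.18, adjusted p = 0.0576). The groups of RPS6 overlapped, and those of RPL11 did not. The stalk protein RPLP1 had 11865, 10479 and 11883 in induced arrays, against 11436, 10829 and 10190.4 in uninduced arrays (0.08, adjusted p = 0.47). RPLP2, the other stalk protein, was measured only by a dim probe set, with 23.4, 18.2 and 19.0 in induced arrays, against 16.5, 11.9 and 5.4 in uninduced arrays, without overlap (0.98 ± 0.46, adjusted p = 0.113).

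After 24 h of dominant-negative Tcf4, 15 members were lower and 1 was higher, while 36.0% of all tested genes were called, 20.0% lower and 16.0% higher. The 15 comprised 3 small subunit proteins (RPS3, RPS7 and RPS23), 7 large subunit proteins (RPL14, RPL19, RPL32, RPL35A, RPL36, RPL37 and RPL38) and 5 of the 6 copies (RPL7L1, RPL22L1, RPL26L1, RPL39L and RPS27L). The median change was -0.17 over all members, -0.14 in the small subunit, -0.17 in the large subunit and -0.47 in the copies, against -0.05 over all tested genes. Of the 57 members 55 had a negative change, and in 39 all 3 induced signals lay below all 3 uninduced ones, against 26.0% of all tested genes.

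RPL39L was again the largest decrease, with 67.7, 103.0 and 69.4 in induced arrays, against 128.9, 152.3 and 126.6 in uninduced arrays (-0.79 ± 0.21, adjusted p = 0.00686). RPL35A, a large subunit protein mutated in some cases of Diamond-Blackfan anaemia, had 2706, 2984.5 and 2032 in induced arrays, against 3472, 3924 and 4618 in uninduced arrays (-0.65 ± 0.13, adjusted p = 0.000742). Neither gene's groups overlapped. RPL7L1, a relative of RPL7, had 1371, 1347 and 1207 in induced arrays, against 1829, 1789 and 1950.3 in uninduced arrays (-0.51 ± 0.08, adjusted p = 9.16e-05).

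RPL36, a large subunit protein, had 3548, 3672 and 3539.6 in induced arrays, against 4987, 4366 and 5281 in uninduced arrays (-0.44 ± 0.10, adjusted p = 0.00179). RPL22L1, the copy of RPL22, had 3526, 3179.7 and 3756 in induced arrays, against 4815, 4657 and 4641 in uninduced arrays (-0.44 ± 0.08, adjusted p = 0.00037). RPS27L, a copy of RPS27 known as a p53 target, had 1937.5, 2179 and 1934 in induced arrays, against 2778, 2578 and 2424 in uninduced arrays (-0.36 ± 0.08, adjusted p = 0.00198). In all 3 genes every induced array lay below every uninduced one. The call of RPS27L was lost when probe sets ending in _x_at or _s_at were left out, where a dimmer one stood at -0.34 (adjusted p = 0.0690).

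RPL26L1 had 914.4, 959.7 and 833.7 in induced arrays, against 1017.5, 1195 and 1106 in uninduced arrays (-0.29 ± 0.09, adjusted p = 0.0145). Its call was lost without replicate 3 of the induced arrays (-0.24, adjusted p = 0.0637) or without replicate 2 of the uninduced arrays (-0.24, adjusted p = 0.0809). The remaining called decreases lay between -0.33 for RPL14 and -0.18 for RPL38. RPS7, the small subunit member with the largest decrease, had 5435, 5431 and 5363 in induced arrays, against 6489, 6143 and 6299.6 in uninduced arrays (-0.22 ± 0.07, adjusted p = 0.0194), a call lost without replicate 3 of the induced arrays (adjusted p = 0.0515) or replicate 1 of the uninduced arrays (adjusted p = 0.0739).

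The single increase was RPL27A, a large subunit protein, measured by a dim probe set of its own symbol with 106.9, 126.1 and 94.8 in induced arrays, against 71.3, 73.8 and 70.4 in uninduced arrays (0.60 ± 0.15, adjusted p = 0.00512). Most members did not pass the test one by one. RPS6 had 7581, 7969.7 and 8217 in induced arrays, against 8983, 8496.5 and 9309 in uninduced arrays (-0.17, adjusted p = 0.0656), and RPL11 had 4772.5, 5132 and 4802 in induced arrays, against 5612, 5249.5 and 5636 in uninduced arrays (-0.17, adjusted p = 0.0772). In both genes the groups did not overlap although the adjusted p missed 0.05.

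RPLP1 had 8068, 8594 and 9069 in induced arrays, against 9925, 8863 and 8720.1 in uninduced arrays, with overlap (-0.10, adjusted p = 0.347). RPLP2 had 25.7, 26.4 and 34.6 in induced arrays, against 24.5, 12.1 and 31.9 in uninduced arrays (0.44, adjusted p = 0.507). The count of 16 called members moved with single arrays: it was 10 without replicate 1, 25 without replicate 2 and 8 without replicate 3 of the induced arrays, and 9 without replicate 1 and 9 without replicate 2 of the uninduced arrays. Among all tested genes these fits called 1717 to 1770 higher and 1994 to 2294 lower. With arrays centred on the spiked controls 2 members were called, RPL35A lower (-0.54) and RPL27A higher (0.70), against 20.4% of all tested genes. With arrays centred on equally bright other genes 22 were called, with arrays centred on their median 8 and after quantile normalization 13, against 30.4%, 30.6% and 36.1% of all tested genes.

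**Figure D2:**
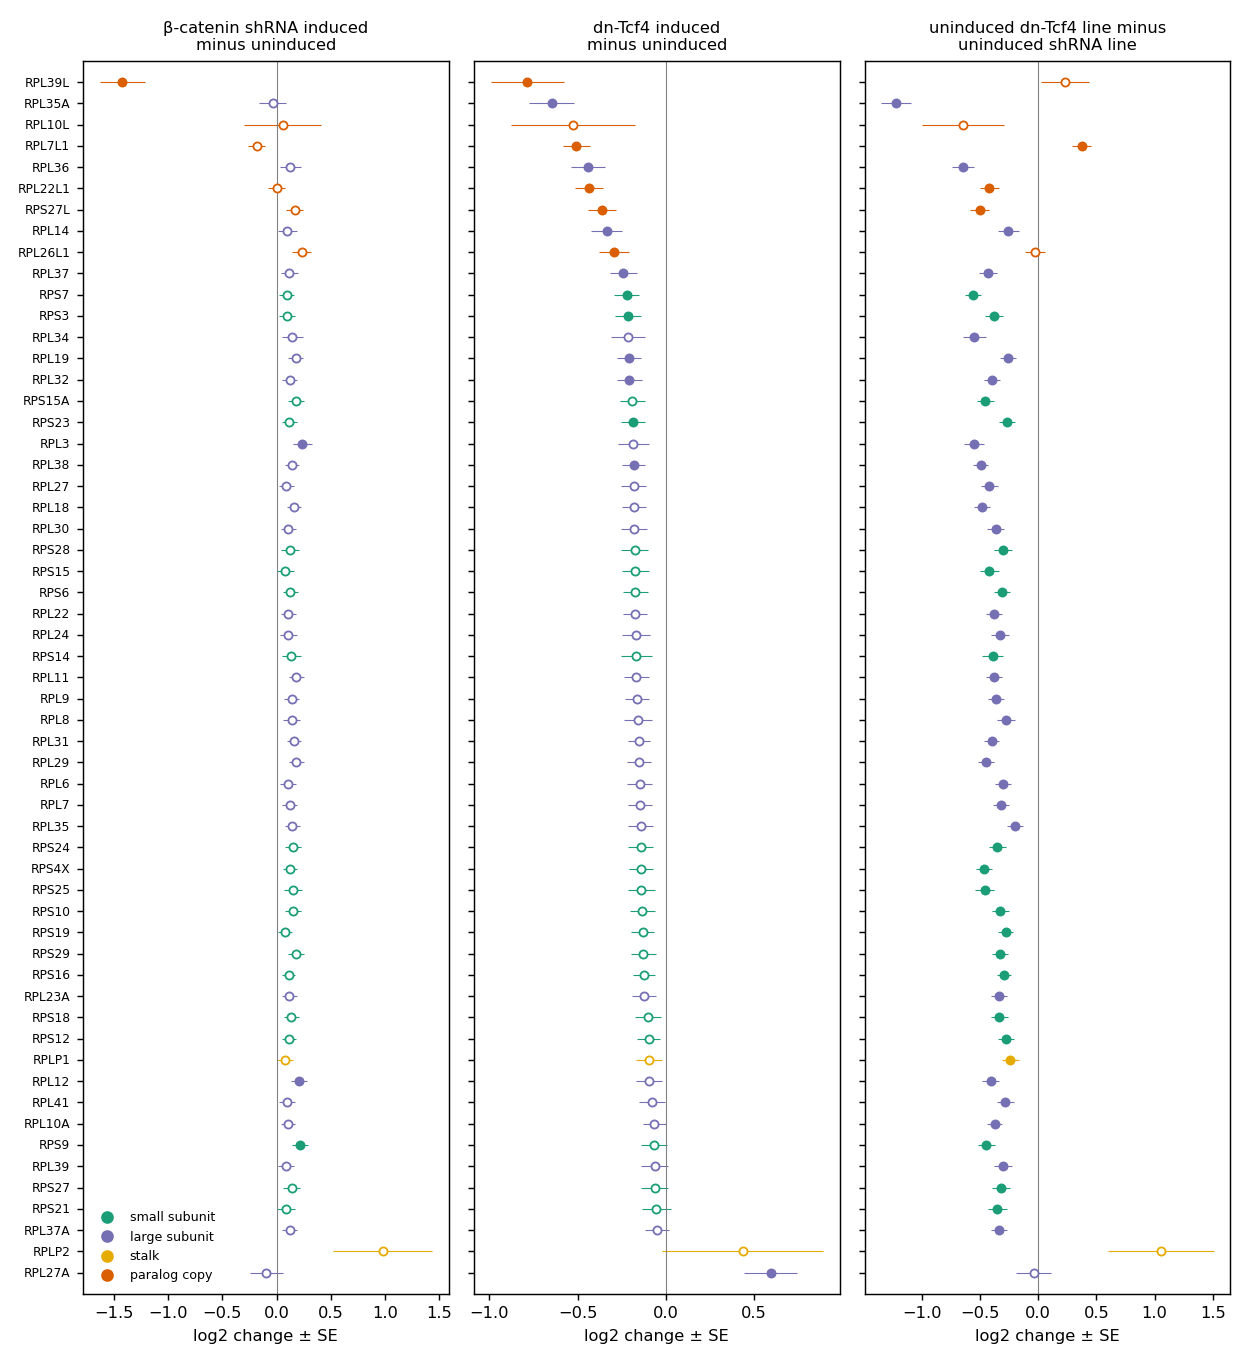
Log2 changes of the 57 tested members, 1 row each, ordered by the change with dominant-negative Tcf4; the panels show the shRNA induction, the dn-Tcf4 induction and the uninduced dn-Tcf4 line minus the uninduced shRNA line. Bars are standard errors from the fit, filled points passed the test, and colours are roles. Most members form a narrow column on 1 side of 0 in each panel (medians 0.12, -0.17 and -0.35). RPL39L lies far to the left in both inductions, RPL35A far to the left between the uninduced lines, and the dim probe sets of RPLP2 and RPL27A lie to the right with dominant-negative Tcf4.

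On the deposited scale 51 of 57 members had a positive change with the shRNA and a negative one with dominant-negative Tcf4. This tally rests on the scaling-dependent signs of the shRNA changes given above. Another 4 were negative in both (RPL39L, RPL7L1, RPL22L1 and RPL35A). Of these, only RPL39L was called with the shRNA, and RPL22L1 (-0.0002) and RPL35A (-0.04) hardly changed there. A dimmer probe set of RPL35A, tested by itself in limma, was called higher with the shRNA (0.44, adjusted p = 0.0350), and its other probe sets were not called. The test of the difference of the changes (shRNA minus dn-Tcf4) called 22 members, 21 of them with the higher change in the shRNA line, while 17.6% of all tested genes were called, 9.03% in that direction and 8.61% in the other. The median difference was 0.30, against 0.04 over all tested genes. By role, 5 of 20 small subunit proteins, 13 of 29 large subunit proteins and 3 of 6 copies had the higher change in the shRNA line, and RPL27A had the lower one.

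The largest called differences were -0.69 ± 0.21 for RPL27A (adjusted p = 0.0327), 0.61 for RPL35A (adjusted p = 0.0261), 0.57 for RPL36 (adjusted p = 0.00837) and 0.53 for RPS27L (adjusted p = 0.00394). In 12 fits that each omitted 1 array, the call of RPL27A was lost in 7 fits (adjusted p between 0.0545 and 0.0876) and that of RPL35A in 4 (adjusted p between 0.0526 and 0.0728), and those of RPL36 and RPS27L held in all 12. In the shRNA line RPL35A had 8895, 8074 and 10229 in induced arrays, against 9529.5, 9417 and 8829.6 in uninduced arrays, which overlapped. RPL36 had 8481, 7422 and 9055 in induced shRNA arrays, against 7305, 8787 and 6837 in uninduced ones, also with overlap.

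For RPL39L the difference was -0.64 (adjusted p = 0.153) and did not pass, but it passed relative to the family, with each array centred on the members (-0.96, adjusted p = 0.0256). For RPS6 the difference was 0.30 (adjusted p = 0.0467), and for RPL11 0.35 (adjusted p = 0.0231), calls lost in 9 and 4 of these 12 fits. The count of 22 was 8, 47 and 8 without replicates 1, 2 and 3 of the induced shRNA arrays, 12 and 11 without replicates 2 and 3 of the uninduced shRNA arrays, 9 and 10 without replicates 1 and 3 of the induced dn-Tcf4 arrays, and 9, 12 and 10 without replicates 1, 2 and 3 of the uninduced dn-Tcf4 arrays. Among all tested genes these fits called 856 to 1112 with the higher and 864 to 1077 with the lower change in the shRNA line. The count of members was 5 with arrays centred on equally bright other genes, 6 after quantile normalization, 1 with arrays centred on their median and 0 with arrays centred on the spiked controls, where 2 members had an unadjusted p under 0.05 in limma. Of all tested genes 12.8%, 18.0%, 12.1% and 8.01% were called under these 4 scalings.

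**Figure D3:**
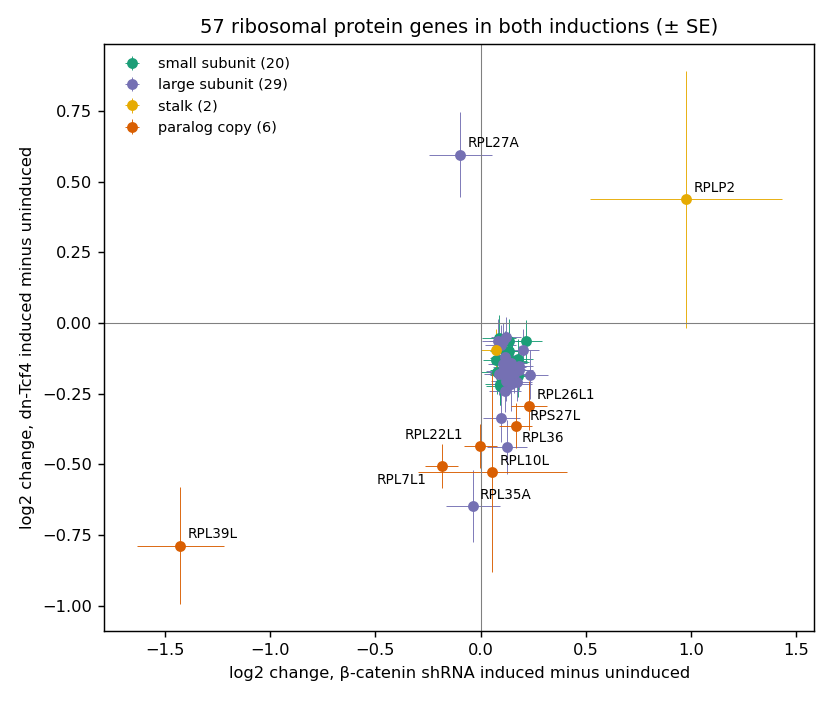
Log2 change with the β-catenin shRNA (x axis) against log2 change with dominant-negative Tcf4 (y axis) for the 57 tested members; bars are standard errors and colours are roles. Most points sit together at a small positive x and a small negative y, and RPL39L lies farthest from the rest. At negative values on both axes lie 4 members, of which RPL22L1 and RPL35A show hardly any change on the x axis.

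Before induction the lines themselves differed. In the uninduced dn-Tcf4 line 51 of 57 members were lower than in the uninduced shRNA line and 1, RPL7L1, was higher, while 37.3% of all tested genes were called, 20.5% lower and 16.9% higher. All 20 small subunit proteins, 28 of 29 large subunit proteins and RPLP1 were lower. The median difference was -0.35, against -0.03 over all tested genes, and the 50 bright members lay between -1.22 and -0.20. In the 51 members called lower the 3 dn-Tcf4 signals all lay below the 3 shRNA signals, against 27.0% of all tested genes.

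RPL35A had the largest difference, with 3472, 3924 and 4618 in the dn-Tcf4 line, against 9529.5, 9417 and 8829.6 in the shRNA line (2.33-fold lower, log2 -1.22 ± 0.13, adjusted p = 1.34e-06). This rests on its brightest probe set, and when probe sets ending in _x_at or _s_at were left out, the remaining one gave 0.10 and did not pass. RPL36 followed with 4987, 4366 and 5281 in the dn-Tcf4 line, against 7305, 8787 and 6837 in the shRNA line (-0.64, adjusted p = 5.95e-05). RPS7 had 6489, 6143 and 6299.6 in the dn-Tcf4 line, against 9917, 9177.5 and 8821 in the shRNA line (-0.56 ± 0.07, adjusted p = 9.23e-06). None of the 3 overlapped between the lines.

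RPL7L1 went the other way, with 1829, 1789 and 1950.3 in the dn-Tcf4 line, against 1437, 1348.5 and 1516 in the shRNA line (0.37, adjusted p = 0.00127). RPS6 had 8983, 8496.5 and 9309 in the dn-Tcf4 line, against 11117, 10835 and 11282 in the shRNA line (-0.31, adjusted p = 0.00212). RPLP1 had 9925, 8863 and 8720.1 in the dn-Tcf4 line, against 11436, 10829 and 10190.4 in the shRNA line (-0.24, adjusted p = 0.0163), a call lost without replicate 1 of the shRNA line or replicate 2 or 3 of the dn-Tcf4 line (adjusted p between 0.0639 and 0.0760). The 5 members that did not pass were RPL10L, RPL26L1, RPL27A, RPL39L and RPLP2, none of them among the 50 bright ones.

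Leaving out any 1 array kept the count between 49 and 52, while 1628 to 2032 of all tested genes were called higher and 2082 to 2397 lower. Rescaling moved the count of members more: 48 with arrays centred on equally bright other genes, 28 with arrays centred on their median, 21 after quantile normalization and 5 with arrays centred on the spiked controls, while 33.2%, 33.1%, 36.7% and 24.3% of all tested genes were called. The 32 equally bright other genes were themselves lower in 18 cases and higher in 4 in the uninduced dn-Tcf4 line.

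Since the members mostly moved by like amounts, their changes were also taken relative to the family, with each array centred on the median of the 57 members. This setting was added after the values were seen. It removes the shift of the members by construction and moves every other gene by the opposite amount. The shares of all tested genes under it therefore give no independent contrast with the counts of members. Relative to the family, RPL39L (-1.55 ± 0.21, adjusted p = 1.15e-05) and RPL7L1 (-0.31 ± 0.10, adjusted p = 0.0217) were lower with the shRNA, while 21.1% of all tested genes were called lower and 10.2% higher. With dominant-negative Tcf4, RPL39L (-0.59), RPL35A (-0.45), RPL7L1 (-0.31), RPL22L1 (-0.24) and RPL36 (-0.24) were lower, and RPL27A (0.79) and RPL37A (0.15) were higher, while 9.22% of all tested genes were called lower and 22.3% higher. RPL26L1 (-0.10) and RPS27L (-0.17) no longer passed. In the difference of the changes RPL27A (-1.01, adjusted p = 0.00480) and RPL39L (-0.96, adjusted p = 0.0256) were called, both with the lower change in the shRNA line, while 18.7% of all tested genes were called in that direction.

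Between the uninduced lines 5 members were lower than the family in the dn-Tcf4 line (RPL35A at -0.84, RPL36 at -0.27, RPS7 and RPL3 at -0.18, RPL34 at -0.17), while 8.26% of all tested genes were called lower. Another 5 were higher (RPLP2, RPL7L1, RPL39L, RPL26L1 and RPL35), while 39.5% of all tested genes were called higher. RPL7L1 stood 0.75 above the family and RPL39L 0.60. The other members did not pass the test relative to the family.

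The copies are made from separate genes and can be set against their main gene within each array. Such a difference compares changes of 2 probe sets and not their levels. With the shRNA the log2 signal of RPL39L moved by -1.51 relative to RPL39, that of RPL7L1 by -0.30 relative to RPL7 and that of RPL22L1 by -0.11 relative to RPL22, each with no overlap between induced and uninduced arrays. Single genes separated below in 22.2% of all tested genes, and no share was computed for pairs of genes. RPS27L moved by 0.03 relative to RPS27, with overlap.

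With dominant-negative Tcf4 all 4 copies shifted relative to their main gene without overlap, RPL39L by -0.72, RPL7L1 by -0.36, RPS27L by -0.30 and RPL22L1 by -0.26. Here 26.0% of all tested genes, taken singly, separated below, and again no share was computed for pairs. The main genes did not pass the test in this comparison, with changes of -0.06 for RPL39 (adjusted p = 0.578), -0.14 for RPL7 (adjusted p = 0.118), -0.06 for RPS27 (adjusted p = 0.578) and -0.17 for RPL22 (adjusted p = 0.0613). This holds for their brightest probe sets only. With every probe set tested by itself in limma, another probe set was called lower for RPL7 (-0.22, adjusted p = 0.0245) and for RPL22 (-0.25, adjusted p = 0.0428). The remaining probe sets of RPL22 were not called. Between the uninduced lines RPL7L1 shifted by 0.69 and RPL39L by 0.53 relative to their main genes, and RPS27L shifted by -0.18.

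The main genes had high signals on all arrays. RPL39 had 14396, 11731 and 13340 in induced shRNA arrays, against 13333, 12349.7 and 11488 in uninduced ones (overlapping). In the dn-Tcf4 line RPL39 had 9167, 9552 and 10127 in induced arrays, against 10015, 9627 and 10478.5 in uninduced ones (overlapping). RPL7 had 12475, 10312.5 and 11774 in induced shRNA arrays, against 11054.5, 10570.4 and 10128.5 in uninduced ones (overlapping). In the dn-Tcf4 line RPL7 had 7549, 7859 and 7634 in induced arrays, against 8660, 8133.5 and 8661.5 in uninduced ones (without overlap). RPL39 and RPL7 are both large subunit proteins, RPL39 at the wall of the exit tunnel. RPS27 had 12523, 10324 and 12286 in induced shRNA arrays, against 11255, 10754 and 9865 in uninduced ones (overlapping). In the dn-Tcf4 line RPS27 had 7686, 8381.5 and 8401 in induced arrays, against 8763, 8505 and 8263 in uninduced ones (overlapping). RPS27, a small subunit protein, thus overlapped in both lines, as RPL39 did. RPL22 had 9232, 8131 and 9262.5 in induced shRNA arrays, against 8643, 8171 and 7893 in uninduced ones (overlapping). In the dn-Tcf4 line RPL22 had 5403, 6029.9 and 5399 in induced arrays, against 6243, 6461 and 6237.5 in uninduced ones (without overlap).

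The copies are given next in the shRNA line. RPL7L1 had 1292, 1260.1 and 1228 in induced arrays, against 1437, 1348.5 and 1516 in uninduced arrays, without overlap but with an adjusted p of 0.0805 (-0.19 ± 0.08). RPL22L1 had 6555, 5610.1 and 6746 in induced arrays, against 6502, 6355 and 6006 in uninduced arrays (adjusted p = 0.999). RPS27L had 3984, 3872 and 4517 in induced arrays, against 3838, 3607 and 3562 in uninduced arrays (0.17 ± 0.08, adjusted p = 0.126). With every probe set tested by itself in limma, a dimmer probe set of RPS27L was called higher with the shRNA (0.66, adjusted p = 0.00160). Another dimmer one stood at 0.38 and was not called. Between the uninduced lines these dimmer probe sets stood at -0.28 and -0.24, neither called, against -0.50 for the brightest.

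RPL26L1 had 1428, 1267 and 1276 in induced arrays, against 1115, 1165 and 1100.4 in uninduced arrays (0.23 ± 0.09, adjusted p = 0.0512), again without overlap. RPL10L, a testis copy of RPL10, stayed dim, with 58.6, 79.8 and 36.5 in induced and 38.9, 68.2 and 57.3 in uninduced shRNA arrays, and 13.9, 36.2 and 26.5 in induced and 40.7, 35.3 and 27.7 in uninduced dn-Tcf4 arrays. No comparison called it. RPL22L1, RPS27L and RPL26L1 all had the higher change in the shRNA line in the test of the difference (0.44, 0.53 and 0.52).

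**Figure D4:**
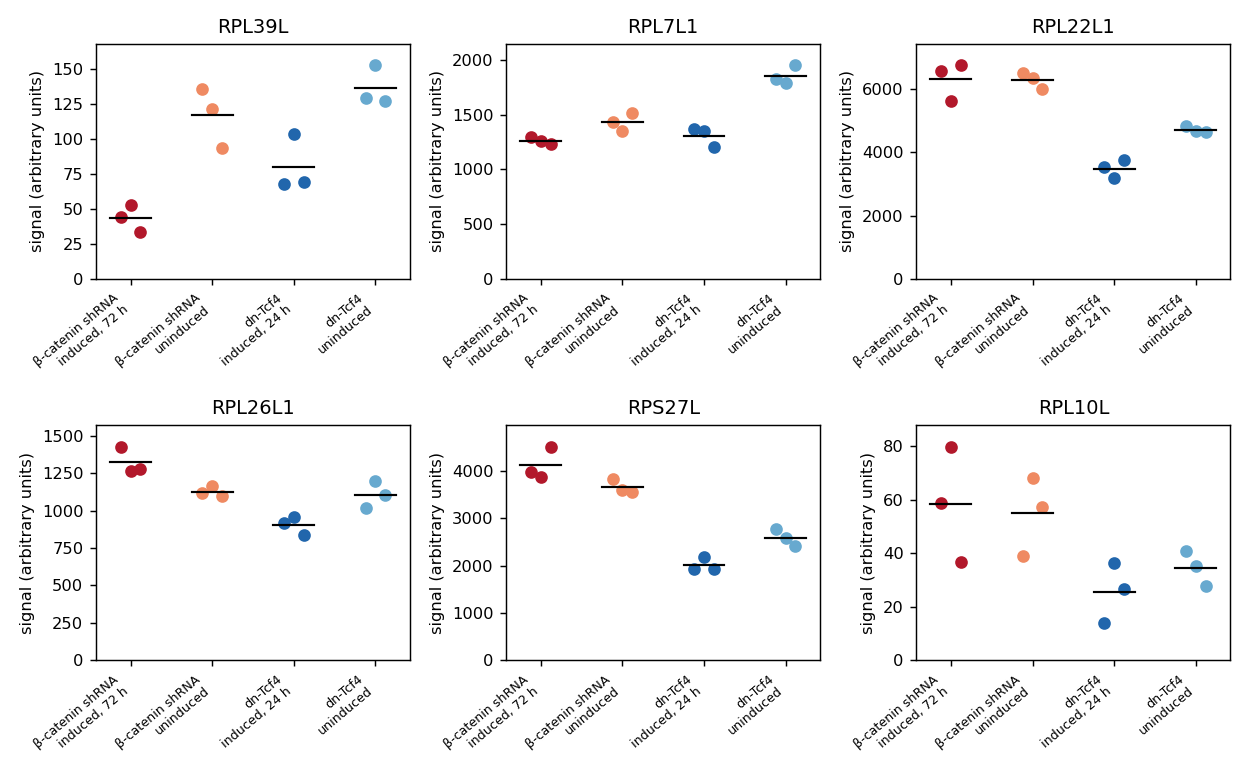
Signals (linear, arbitrary units, axis from 0) of the 6 tested paralog copies in the 4 groups; points are arrays and bars are means of 3. In 5 panels, all but that of RPL10L, the induced dn-Tcf4 arrays lie below the uninduced ones, and the induced shRNA arrays of RPL39L lie between 33.8 and 52.9, below all of its other arrays.

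The genes had other probe sets with the same single symbol, and 49 of them, from 28 genes, passed the filter. With every probe set tested by itself, 12 of the 49 were called with the shRNA, all of them higher, and 10 with dominant-negative Tcf4, 9 of them lower, against 26.7% and 27.9% of all probe sets. Without probe sets ending in _x_at or _s_at, 26 members were tested, of which 7 were called with the shRNA, 9 with dominant-negative Tcf4, 12 in the difference of the changes and 15 between the uninduced lines, against 31.1%, 31.8%, 15.8% and 34.8% of all tested genes. Of the 49 other probe sets, 19 had a mean log2 signal of at least 12, and of these 14 end in _x_at and 4 in _s_at. The 19 had median changes of 0.15 with the shRNA, -0.17 with dominant-negative Tcf4 and -0.34 between the uninduced lines. The 30 dimmer ones of the 49 had medians of 0.38, -0.24 and -0.06, a division made after the values were seen.

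Single genes show the spread between their probe sets. For RPL22 the brightest probe set changed by 0.11 with the shRNA, and 2 dimmer ones, at a mean log2 signal of 9.83 and 9.82, by 0.53 and 0.47. For RPL31 a dimmer probe set changed by 0.96 in the shRNA induction and -0.34 in the dn-Tcf4 induction, against 0.16 and -0.15 for the brightest, and for RPL37 2 dimmer ones changed by 1.11 and 1.01 with the shRNA, against 0.12. For RPL35A the next brightest probe set changed by -0.34 with dominant-negative Tcf4 and by -0.72 between the uninduced lines, smaller than the -0.65 and -1.22 of the brightest, and another, dimmer one by -0.34 and 0.10. For RPL38 the brightest probe set was lower with dominant-negative Tcf4 (-0.18), while a dimmer one was called higher (0.72, adjusted p = 0.0187 in limma). Another of its dimmer probe sets stood at 0.53 and was not called. Of the chosen probe sets 14 end in _x_at and 29 in _s_at, marks of probes that can bind other transcripts, so that signal from pseudogenes and relatives cannot be told apart there.

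**Figure D5:**
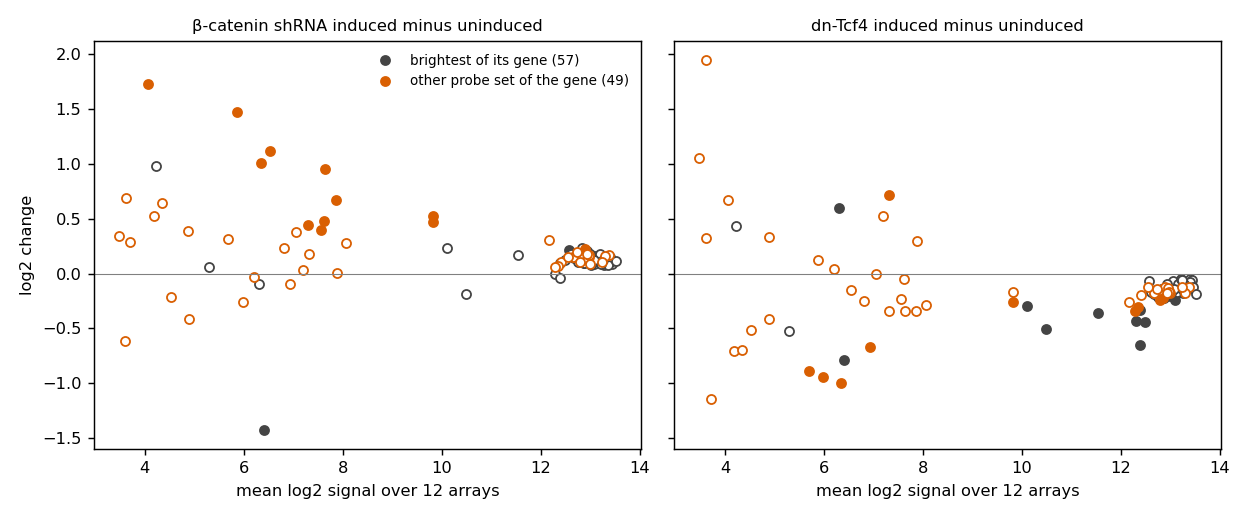
Mean log2 signal over 12 arrays (x axis) against log2 change (y axis) for all probe sets of the members that passed the filter, with the shRNA (left) and dominant-negative Tcf4 (right). Dark points are the brightest probe set of each gene, orange points the other 49, and filled points passed the test over all probe sets. Bright probe sets gather near 0.12 on the left and -0.17 on the right, and those under a log2 signal of 10 scatter over more than 1 log2 unit.

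Other genes with TOP motifs, mostly translation factors, were read from a list of the pathway. This list and those below were read on the deposited scale only, and no rescaling was run for them. Whether their counts hold under the scalings that moved the counts of members was not tested. Of 17 tested elongation factors and other TOP genes, 3 were higher with the shRNA (EIF3H 0.40, EIF3F 0.25, EIF4B 0.22; EIF3H and EIF3F are subunits of the initiation factor eIF3, and EIF4B is a cofactor of the helicase eIF4A), with a median of 0.15, while 16.6% of all tested genes were higher. With dominant-negative Tcf4 9 were lower, led by NAP1L1 (-0.67), a histone chaperone, EIF3E (-0.49) and PABPC1 (-0.37), the poly(A)-binding protein, with a median of -0.21, while 20.0% of all tested genes were lower. Between the uninduced lines 12 were lower in the dn-Tcf4 line (median -0.35), against 20.5% of all tested genes, and 10 had the higher change in the shRNA line, against 9.03%.

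Genes that build ribosomes are read here against all tested genes, of which 17.4% were lower in the shRNA induction and 20.0% in the dn-Tcf4 induction, at medians of 0.02 and -0.05. Of 23 tested assembly factors and chaperones of ribosomal proteins, 9 were lower with the shRNA (median -0.23), led by GRWD1 (-1.20), the chaperone of RPL3, TSR2 (-0.87), the chaperone of RPS26, and PES1 (-0.66), and 17 were lower with dominant-negative Tcf4 (median -0.63), led by RRS1 (-1.20), PDCD2L (-1.20) and MRTO4 (-1.11). Of 13 genes of ribosomal RNA synthesis, 5 were lower and 2 higher with the shRNA (median -0.35), and 9 were lower with dominant-negative Tcf4 (median -0.58). Among these, POLR1E (-1.04), POLR1A (-0.77) and TAF1A (-0.77) had the largest decreases with dominant-negative Tcf4, and the 2 increases with the shRNA were TAF1D (0.94) and RRN3 (0.54).

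MYC, the best known link between Wnt signalling and ribosome production, changed by -0.99 ± 0.09 with the shRNA and by -0.99 ± 0.09 with dominant-negative Tcf4, passing the test in both. EIF4EBP1, an inhibitor of initiation that mTOR controls, changed by -0.95 with the shRNA and by -0.94 with dominant-negative Tcf4, both called. Of the 14 tested genes of TOP and growth control 5 were lower in the shRNA induction (17.4% of all tested genes) and 4 in the dn-Tcf4 induction (20.0% of all tested genes), among these LARP1, which binds TOP mRNAs, with -0.35, while its change with the shRNA was -0.08 and did not pass. CDKN1A, a p53 target, changed by -0.36 with the shRNA and by 2.64 with dominant-negative Tcf4, both called, and MDM2 did not pass in either. Of the 3 tested genes of their list, 1 was higher and 1 lower with dominant-negative Tcf4, against 16.0% and 20.0% of all tested genes.

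The mitochondrial ribosomal proteins, encoded in the nucleus, were counted in the same way, and of all tested genes 17.4% were lower and 16.6% higher in the shRNA induction, 20.0% and 16.0% in the dn-Tcf4 induction, and 20.5% and 16.9% in the uninduced dn-Tcf4 line. Of 75 tested genes 25 were lower and 4 higher with the shRNA (median -0.15), led by MRPL4 (-1.48), MRPL16 (-1.003) and MRPL11 (-0.92), and 46 were lower and 1 higher with dominant-negative Tcf4 (median -0.33), led by MRPS6 (-1.01), MRPL4 (-0.92) and MRPS2 (-0.85). Between the uninduced lines 21 were lower and 5 higher in the dn-Tcf4 line (median -0.13). None of the 75 reached a mean log2 signal of 12.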

How the data were processed

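RNA of 12 samples was hybridised to Affymetrix U133 Plus 2.0 arrays, 1 per sample, in 4 groups of 3. The deposited values are intensity (signal) on a linear scale. Per the submitters' processing notes MAS5 and GCOS were used, with versions not given in the sources used here. Detection calls were not used here, and the number of arrays limits the precision.

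Of 54675 probe sets 41097 had exactly 1 gene symbol in the platform annotation, 1801 had several and 11777 were unnamed here. Before taking log2, signals were floored at 1. The brightest probe set stood for each gene, and genes were tested if its mean log2 was at least 3.35 (signal 10.2), the median of all probe sets. This kept 12386 genes. Group means were fitted with limma 3.58.1 (R 4.3.3, variance trend), with 4 contrasts and two-sided p-values adjusted over all tested genes by Benjamini and Hochberg. The steps were tested on simulated data.

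The members, the other gene lists and the cell type markers were chosen with earlier results of these data known. Values per array are given for the 6 largest called decreases and 4 largest called increases per induction, the 4 largest differences of change, 3 per direction between the uninduced lines, the stalk proteins, RPL11, RPS6 and the copies, and for lists up to 3 called genes by size. The called members of the remaining counts and a few genes of the lists were named after their values were seen. RPL5, RPLP0, RPSA and RPS27A were not analysed here, and no value of a Y-linked gene is given.

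Alternatives were quantile normalization, centring arrays on their median or on other genes above percentile 90 of signal, an offset of 3.5 instead of the floor, no filter, a stricter filter (6.29, signal 78.2), and testing all probe sets singly and leaving out those ending in _x_at or _s_at. Further alternatives changed the model: a constant prior variance, weights for array quality, a fit to the compared arrays alone, a block for replicate number, and the omission of 1 array at a time. Centring on the members, on 32 equally bright other genes and on the spiked controls was added after seeing the data.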

Additional observations from a re-analysis of the deposited data

Results flagged for a closer look

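In 22 members the changes of the 2 inductions differed in the test of the difference itself (change with the shRNA minus change with dominant-negative Tcf4, log2, limma with Benjamini-Hochberg adjustment over all tested genes). In the small subunit the differences were 0.37 for RPS15A, 0.32 for RPS7, 0.31 for RPS29, 0.30 for RPS6 and 0.30 for RPS23. In the large subunit they were 0.61 for RPL35A, 0.57 for RPL36, 0.43 for RPL14, 0.42 for RPL3, 0.38 for RPL19, 0.36 for RPL37, 0.35 for RPL11, 0.34 for RPL18, 0.33 for RPL29, 0.33 for RPL32, 0.32 for RPL38, 0.31 for RPL31 and 0.30 for RPL9, and RPL27A went the other way at -0.69. Among the copies they were 0.53 for RPS27L, 0.52 for RPL26L1 and 0.44 for RPL22L1. The mean log2 signal of the spiked controls differed between the inductions in the same direction as the 21 positive differences, shifting by 0.11 in the shRNA line and by -0.11 in the dn-Tcf4 line, and its part was not tested.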

How the results depend on the processing

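The shRNA count of 4 called members (3 higher, 1 lower) was 1 after quantile normalization, 1 with arrays centred on their median, 2 centred on the members, 2 centred on equally bright other genes, 1 centred on the spiked controls, 2 with no filter and 1 with no variance trend, all of them lower. It was 8 under the stricter filter, 7 of 26 without probe sets ending in _x_at or _s_at and 2 with every probe set by itself. All-gene calls with the shRNA were 1887 higher and 1996 lower with no filter and 1916 and 1976 with no variance trend. Under the stricter filter, which tests fewer genes, they were 1738 and 1933. The dn-Tcf4 count of 16 was 8 with arrays centred on their median, 7 centred on the members, 2 centred on the spiked controls, 9 with no filter, 9 without _x_at or _s_at probe sets and 9 with no variance trend. With no filter 1844 of all genes were higher and 2249 lower, and with no variance trend 1826 and 2232. The count of 22 differences was 6 after quantile normalization, 1 with arrays centred on their median, 14 centred on other genes above percentile 90 of signal, 2 centred on the members (both lower), 5 centred on equally bright other genes, 0 centred on the spiked controls (limma, 2 at an unadjusted p under 0.05), 5 with no filter, 12 without _x_at or _s_at probe sets and 3 with no variance trend. All-gene calls of differences were 947 higher and 1274 lower with centring on genes above percentile 90, 941 and 943 with no filter, and 882 and 867 with no variance trend. The count of 52 between the uninduced lines was 21 after quantile normalization, 28 with arrays centred on their median, 10 centred on the members, 5 centred on the spiked controls and 15 without _x_at or _s_at probe sets. Leaving out 1 array gave 1 to 30, 8 to 25, 8 to 47 and 49 to 52. All-gene calls in these fits were 1739 to 1997 higher and 1804 to 2026 lower with the shRNA. With dominant-negative Tcf4 they were 1717 to 1770 and 1994 to 2294. For the difference they were 856 to 1112 and 864 to 1077, and between the uninduced lines 1628 to 2032 and 2082 to 2397. The median change of all genes, 0.02, -0.05 and -0.03 in the inductions and the uninduced lines, stood at -0.09, 0.05 and 0.12 with arrays centred on the spiked controls, at -0.11, 0.14 and 0.35 relative to the members and at -0.11, -0.05 and 0.08 relative to equally bright genes. The member medians were 0.02, -0.06 and -0.20 with the spiked controls and -0.00, -0.08 and -0.09 after quantile normalization. All-gene calls, 2059 higher and 2158 lower with the shRNA, became 920 and 1731 (spiked controls), 1258 and 2613 (members) and 1190 and 2571 (equally bright genes). With dominant-negative Tcf4 1981 higher and 2474 lower became 1606 and 917 (spiked controls) and 2761 and 1142 (members). For the difference of changes 1118 higher and 1067 lower became 192 and 800, 307 and 2311, and 459 and 1126 (equally bright genes). Between the uninduced lines 2089 higher and 2536 lower became 1857 and 1148 (spiked controls), 4889 and 1023 (members), 2426 and 1668 (arrays' median) and 2373 and 1741 (equally bright genes). The cause of these shifts was not tested.

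Same-numbered arrays did not deviate together (r between -0.08 and 0.09), which shows no shared effect but cannot tell whether the samples were paired. With the replicate number as a block the counts were 3, 14, 20 and 52. All-gene calls with this block were 2066 higher and 2162 lower, 1987 and 2478, 1118 and 1086, and 2058 and 2520. Of 1809 values of 21 named members under the alternatives 12 had the opposite sign to the reported value, with at least 1 of both values called. Relative to the members these were, between the uninduced lines, RPL26L1 at 0.35, RPL39 at 0.073, RPL7 at 0.056, RPLP1 at 0.14, RPS27 at 0.057 and RPS6 at 0.063, and in the difference of changes RPS6 at -0.022 and RPS7 at -0.0050. After quantile normalization RPL39 was at 0.018 and RPLP1 at 0.039 between the uninduced lines. Without _x_at or _s_at probe sets RPL35A was at 0.44 with the shRNA and at 0.10 between the uninduced lines. In the dn-Tcf4 induction RPL39L, RPL7L1, RPL22L1 and RPL36 kept their call under the alternatives run for them but centring on the spiked controls, where they stood at -0.68, -0.40, -0.33 and -0.33, and RPL7L1 and RPL36 could not be tested without _x_at and _s_at probe sets. RPL35A kept it under all but the exclusion of _x_at and _s_at probe sets (-0.34).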
